A study of Arabidopsis thaliana with 104 samples.

Results

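The target-mimic RNAs IPS1 (INDUCED BY PHOSPHATE STARVATION1, locus AT3G09922) and AT4 (locus AT5G03545) were followed across a study of phosphate (Pi) supply, genotype and root bacteria in Arabidopsis thaliana. Both were chosen by locus ID, as the 2 members out of 27206 loci in the count table, and both passed the filter on low counts that left 18926 genes for testing. RNA came from whole seedlings of Col-0, the wild type, and of the mutants phr1 and phr1 phl1; the labels do not name the mutant alleles. Seedlings had germinated for 7 days on 1 mM Pi with 0.5% sucrose and then spent 12 days without sucrose on plates in which low Pi meant 50 µM and high Pi 625 µM, either with no bacteria or with SynCom, a synthetic community of bacteria. This gave 12 groups from 5 independent experiments, A to E, with 2 libraries per group in each experiment. Col-0 and phr1 were grown in all 5 experiments (10 libraries per group) and phr1 phl1 in C, D and E only (6 libraries per group). The study's comparisons ask how Pi supply, SynCom and the regulators PHR1 and PHL1 set gene expression, and the values below answer them for IPS1 and AT4.

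Plants short of Pi make the microRNA miR399, which pairs with the leader of the PHO2 transcript and leads to its cleavage. PHO2 is a ubiquitin-conjugating enzyme that limits the amount of Pi transport proteins, so miR399 raises Pi uptake and root-to-shoot transport. IPS1 and AT4 carry a site that pairs with miR399 but is interrupted opposite the cleavage position, so that they hold miR399 without being cut, and PHO2 is partly spared. Both RNAs are classic reporters of Pi starvation, and the MYB-type factors PHR1 and PHL1 activate such genes through a promoter element called P1BS.

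The mature miR399 sequences and the sites they pair with are shown first, because the mimics and the target differ at one feature of these sites. RefSeq's TAIR10.1 annotation holds 6 mature miR399 sequences of the 3' arm, which share 1 seed, written in capitals at bases 2 to 8; miR399b and miR399c are identical.
miR399a: uGCCAAAGgagauuugcccug
miR399b and miR399c: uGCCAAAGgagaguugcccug
miR399d: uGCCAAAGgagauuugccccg
miR399e: uGCCAAAGgagauuugccucg
miR399f: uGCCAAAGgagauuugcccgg
The best match of miR399b in IPS1 and in AT4 was a site of 24 bases with a 3-base bulge, in capitals, between the bases facing miRNA positions 10 and 11. The search allowed a bulge at that place only, of 0 to 4 bases, so its position was set by the search. The PHO2 transcript held 5 sites of 21 bases with no bulge, numbered from the transcript's start, of which sites 1 and 3 are shown.
IPS1 site: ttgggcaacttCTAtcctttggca
AT4 site: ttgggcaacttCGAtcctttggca
PHO2 site 1: tagggcaaatcttctttggca
PHO2 site 3: ttgggcaaatctcctttggca
These sites lie at chr3:3051224-3051247 on the plus strand for IPS1, at chr5:895149-895172 on the plus strand for AT4, and at chr2:14282106-14282126 and chr2:14281884-14281904 on the minus strand for PHO2, all in TAIR10.1. Against miR399b the IPS1 and AT4 sites each had 18 base pairs, 2 wobble pairs and 1 mismatch, at miRNA position 20. Counted from the 5' end, IPS1 and AT4 differed at 1 of the 24 site bases, T13G, which lies inside the bulge. All 5 PHO2 sites fell in a stretch of the transcript that RefSeq marks as not coding.

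IPS1 is annotated as 1 exon of 542 bases at chr3:3050989-3051530 (plus strand, TAIR10.1) and AT4 as 1 exon of 936 bases at chr5:894582-895517 (plus strand). RefSeq lists both as protein coding, with open reading frames of 243 and 213 bases that include the miR399 site, although the field treats both as non-coding RNAs. No annotated gene overlapped either locus, and the nearest gene downstream lay 78 bases from IPS1 and 137 bases from AT4, each on the other strand. In an alignment of the 2 RNAs 365 of 509 aligned bases were identical (71.7%), and the longest shared run was 44 bases. The read length is not given in the sources used here, so reads that lie wholly in that run could be assigned to either gene or to neither.

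The P1BS element, GNATATNC, reads the same on both strands, and it was searched in the 1000 bases before each annotated start. IPS1 held 2 matches, the first bases at -582 and -548, and AT4 held 2, at -564 and -26. At least 1 match was present in 20.1% of the 33054 windows of this length in the genome, and 2 or more in 2.82%. The stretches that hold these matches, in capitals, are shown as context for the response to PHR1 and PHL1.
IPS1, bases -600 to -501: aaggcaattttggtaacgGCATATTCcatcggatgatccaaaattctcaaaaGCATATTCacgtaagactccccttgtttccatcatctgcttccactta
AT4, bases -600 to -501: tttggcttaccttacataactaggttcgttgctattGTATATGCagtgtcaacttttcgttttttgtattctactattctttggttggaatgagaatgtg
AT4, bases -100 to -1: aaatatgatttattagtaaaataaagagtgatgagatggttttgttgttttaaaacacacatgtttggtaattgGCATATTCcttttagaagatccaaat
They span chr3:3050389-3050488, chr5:893982-894081 and chr5:894482-894581 on the plus strand of TAIR10.1. In the shorter window of 250 bases before to 50 after the start, AT4 held 1 match and IPS1 none, against 6.25% of 33054 such windows with a match. Both windows count from the annotated start, which was not checked against the start of transcription and may differ from it for IPS1. A match is a description of these letters and not a measured binding site.

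Libraries held 955174 to 9550846 counts with a median of 4335782. Levels are in CPM, the gene's count scaled to the library total over the tested genes and the TMM factor. The PHR1 locus had 68.0 ± 9.92 CPM in Col-0 (SD, n = 40), 37.0 ± 9.48 in phr1 (n = 40) and 38.6 ± 9.24 in phr1 phl1 (n = 24). Counts at the PHL1 locus were higher, not lower, in the plants labelled phr1 phl1: 135 ± 182 CPM (n = 24), against 13.5 ± 3.66 in Col-0 and 13.8 ± 3.87 in phr1 (n = 40 each). The mean and SD of phr1 phl1 include a library at 972 CPM (high Pi without bacteria), and its group medians ran from 65.8 to 112 CPM. The PHL1 ranges did not overlap (lowest 42.0 CPM in phr1 phl1, highest 24.3 CPM elsewhere). With the alleles not named, counts over a whole locus do not show whether a working protein was made, and genotypes are given throughout as the labels name them. The labels also do not say whether a mutant line carries a transgene with IPS1 sequence, so IPS1 counts in the mutants are reads assigned to that locus and are not shown to come from the endogenous gene alone. 3 libraries stood apart by depth or by their residuals: 1 each of phr1 at high Pi without bacteria, Col-0 at low Pi with SynCom (both experiment D) and phr1 phl1 at low Pi without bacteria (experiment E).

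IPS1 and AT4 were both highest in Col-0 plants that had SynCom and low Pi, and below that group their orders parted. IPS1 in that group had a lowest value of 21.2, a median of 344 and a highest of 1260 CPM, followed by phr1 phl1 at low Pi with SynCom (6.52, 22.8 and 59.4 CPM) and phr1 at low Pi with SynCom (5.40, 10.05 and 51.7 CPM). Both mutants at high Pi with SynCom came next, at 3.94, 6.41 and 9.50 CPM in phr1 phl1 and 4.24, 5.99 and 6.76 CPM in phr1. These 5 groups did not overlap with phr1 at low Pi without bacteria (0.631, 1.58 and 2.44 CPM), the next in the order. The other mutant groups without bacteria had medians between 1.12 and 1.53 CPM. Col-0 closed the order of IPS1, with medians of 0.299 CPM at low Pi without bacteria, 0.0866 CPM at high Pi with SynCom and 0 CPM at high Pi without bacteria. Apart from the step after the fifth group, neighbours in the order of IPS1 overlapped in range, and 1 Col-0 library at low Pi without bacteria reached 25.7 CPM.

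For AT4, as for IPS1, the 3 groups at low Pi with SynCom came first, but with phr1 ahead of phr1 phl1. Its lowest, median and highest values in those 3 groups were 393, 1837 and 4718 CPM in Col-0, 211, 1087 and 2429 CPM in phr1, and 25.7, 324 and 475 CPM in phr1 phl1. All other groups had medians of at most 24.8 CPM, reached by Col-0 at low Pi without bacteria (range 2.43 to 142 CPM). The lowest median was that of phr1 at high Pi without bacteria, at 2.75 CPM (1.32 to 5.79 CPM). Every pair of neighbours in the order of AT4 overlapped in range. Per kilobase of annotated exon, AT4 stood above IPS1 in Col-0 with SynCom and low Pi, with 2380 ± 1564 against 986 ± 822 CPM per kb (SD, n = 10). In phr1 at high Pi with SynCom the order was the other way round, with 5.22 ± 3.09 CPM per kb of AT4 and 10.7 ± 1.79 CPM per kb of IPS1 (n = 10).

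**Figure D1:**
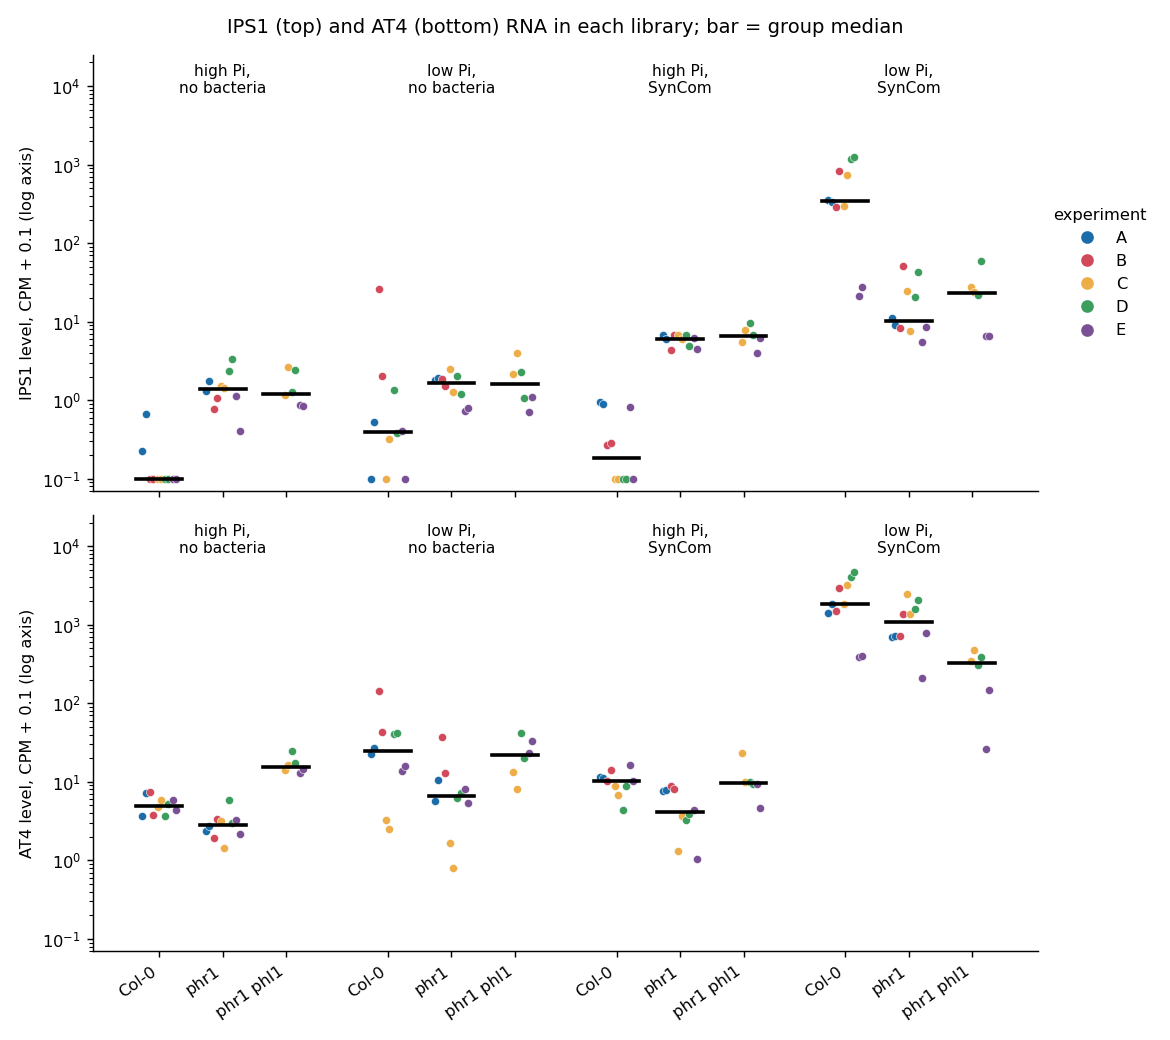
Level of IPS1 (top) and AT4 (bottom) in every library, as CPM + 0.1 on a log axis, by Pi, bacteria and genotype; points are libraries coloured by experiment and bars are group medians. At low Pi with SynCom the medians of IPS1 were 344, 10.05 and 22.8 CPM in Col-0, phr1 and phr1 phl1, and those of AT4 were 1837, 1087 and 324 CPM.

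With SynCom, low Pi raised both RNAs in all 3 genotypes, but to very different extents. In Col-0 IPS1 went from 0 to 0.851 CPM over the high Pi libraries (median 0.0866, 5 of 10 at 0) to 21.2 to 1260 CPM at low Pi, with no overlap. The high Pi group held 13 IPS1 reads in all, or 0.317 CPM with an exact 95% Poisson interval of 0.169 to 0.543, and at low Pi the pooled level was 409.8 CPM (404 to 415); such intervals cover counting error only. IPS1 was called higher at low Pi in edgeR's quasi-likelihood fit, with Benjamini-Hochberg adjustment over 18926 genes (adjusted p = 3.73e-32), a comparison in which 27.5% of genes were called higher. Its fitted log2 fold of 10.44 depends on the prior count and is not read as a size. AT4 rose from a range of 4.22 to 16.4 CPM (median 10.03) to one of 393 to 4718 CPM in Col-0, a log2 fold change of 7.62 ± 0.46 (SE; adjusted p = 1.67e-26), with no overlap. The AT4 level at low Pi was between 29.9 (experiment E) and 674 (experiment D) times that at high Pi within single experiments.

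In phr1 the response of IPS1 was small and that of AT4 was not. IPS1 in phr1 with SynCom ranged from 4.24 to 6.76 CPM (median 5.99) at high Pi and from 5.40 to 51.7 CPM (median 10.05) at low Pi, and the ranges overlapped. The log2 fold change was 1.55 ± 0.40 (adjusted p = 0.00183), where 13.4% of all genes were called higher. AT4 in phr1 rose from 0.944 to 8.84 CPM (median 4.01) to 211 to 2429 CPM, with no overlap and a log2 fold change of 7.88 ± 0.48 (adjusted p = 5.76e-26). This response of AT4 differed from that in Col-0 by 0.26 ± 0.56 on the log2 scale (95% interval -0.84 to 1.37; adjusted p = 0.840). For IPS1 the same difference between the responses was -8.89 ± 0.74 (adjusted p = 1.66e-17), where 1.95% of all genes were called lower, and it too rests on the near-absent reads of Col-0 at high Pi.

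In phr1 phl1 low Pi raised both RNAs as well, and AT4 by less than in Col-0 or phr1. IPS1 went from 3.94 to 9.50 CPM (median 6.41) at high Pi to 6.52 to 59.4 CPM (median 22.8), a log2 fold change of 1.796 ± 0.53 (adjusted p = 0.0101), where 10.5% of genes were called higher. The difference was smallest in experiment E, with 5.03 CPM at high and 6.53 CPM at low Pi (means of 2 libraries), and the call was lost with DESeq2 (adjusted p = 0.0882) and without experiment C or D (adjusted p = 0.206 and 0.207). AT4 rose from 4.58 to 23.2 CPM (median 9.55) to 25.7 to 475 CPM, with no overlap and a log2 fold change of 4.53 ± 0.54 (adjusted p = 1.46e-09). Against the response in phr1 this was lower by a log2 difference of -3.35 ± 0.67 (adjusted p = 0.00743), where 0.264% of genes were called lower; the call was lost without experiment C or D (adjusted p = 0.130 and 0.0795). Against Col-0 the difference was -3.09 ± 0.65 (adjusted p = 0.000456), where 8.54% were.

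Shoot markers moved with Pi in the same libraries with SynCom, and root markers did so in Col-0. In Col-0 8 of 8 shoot markers were called lower at low than at high Pi (median log2 fold change -0.87; 22.4% of all genes called lower), with a summed level of 30889 to 48882 CPM at high and 1393 to 34594 CPM at low Pi. All 8 tested root markers were called higher there (median 0.90; 27.5% of genes called higher), from 15.7 to 288 CPM at high to 23.8 to 431 CPM at low Pi. In phr1 6 of 8 shoot markers were called lower (median -0.56; 11.1% of genes) and 0 of 8 root markers were called, where 13.4% of genes were called higher. In phr1 phl1 4 of 8 shoot markers were called lower (median -0.62; 9% of genes) and 1 of 8 root markers higher, near the 10.5% of genes called higher. The part of these shifts in the Pi responses of IPS1 and AT4 was not tested.

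At low Pi with SynCom IPS1 was far lower in phr1 than in Col-0 and was not lower still in phr1 phl1. AT4 had a smaller difference between phr1 and Col-0, which was not called, and was called lower in phr1 phl1 than in phr1. IPS1 was lower in phr1 than in Col-0 by a log2 fold change of -4.60 ± 0.36 (adjusted p = 4.70e-20), and 14.1% of all genes were called lower. The pooled ranges overlapped only because of experiment E, in which Col-0 had 21.2 and 27.6 CPM; within every experiment both Col-0 libraries lay above both phr1 libraries. The mean of Col-0 was 34.3, 18.6, 32.8, 38.2 and 3.51 times that of phr1 in experiments A to E. In phr1 phl1 IPS1 was lower than in Col-0 by -4.09 ± 0.45 (adjusted p = 2.37e-12; 19% of genes called lower). From phr1 to phr1 phl1 IPS1 changed by 0.51 ± 0.42 (95% interval -0.30 to 1.33; adjusted p = 0.567), and the mean in phr1 was 0.618, 0.788 and 1.06 times that in phr1 phl1 in C, D and E. The interval reaches down to -0.30, so a further fall of a size like that of AT4 lies outside it.

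For AT4 the step from Col-0 to phr1 was -0.79 ± 0.33 (adjusted p = 0.0674) and was not called. Its Col-0 mean was 2.30, 2.14, 1.303 and 2.41 times the phr1 mean in experiments A to D and 0.786 times in E. Left without experiment E the fold was -0.91 (adjusted p = 0.0335), and without experiment C it was -0.996 (adjusted p = 0.0243). The step from phr1 to phr1 phl1 was -1.99 ± 0.42 (adjusted p = 0.00240), a comparison in which 1.72% of all genes were called lower. It had the same direction in each experiment, with the phr1 mean 4.65, 5.28 and 5.81 times the phr1 phl1 mean in C, D and E, and all 4 libraries of these groups were separated in each. Without experiment D the adjusted p was 0.0925, and with the 2 libraries of each group and experiment summed it was 0.101. Against Col-0, AT4 in phr1 phl1 was lower by -2.79 ± 0.44 (adjusted p = 4.37e-07).

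**Figure D2:**
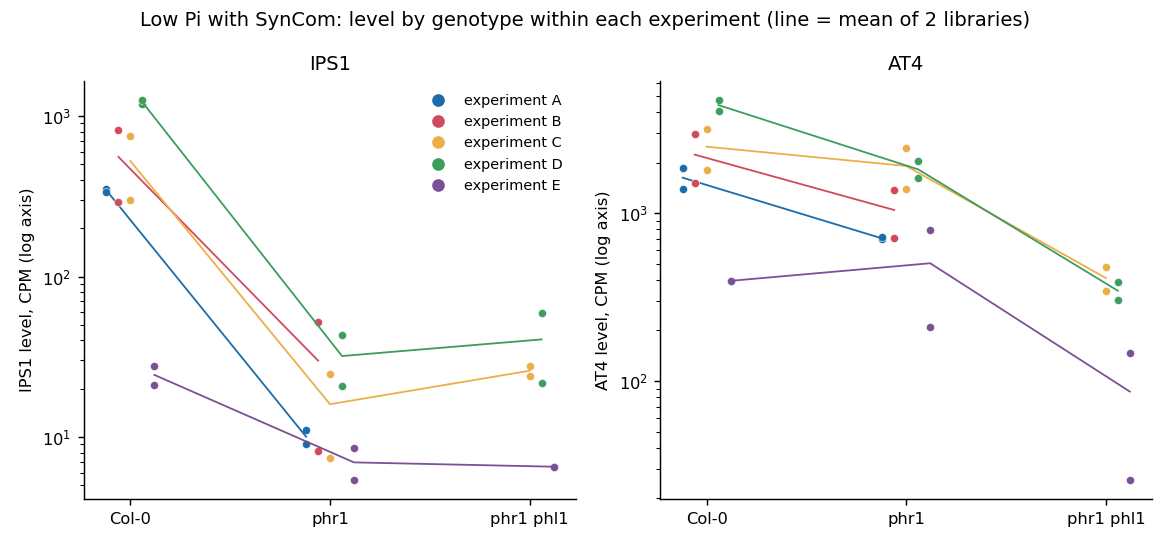
Level of IPS1 (left) and AT4 (right) at low Pi with SynCom, in CPM on a log axis, by genotype; points are libraries, and lines join the means of the 2 libraries within an experiment. IPS1 dropped between Col-0 and phr1 in all 5 experiments, whereas AT4 was 4.65 to 5.81 times higher in phr1 than in phr1 phl1 in all 3 experiments that held both.

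The unequal losses showed as a change in the ratio of IPS1 to AT4, which is taken within a library and so does not depend on how libraries are scaled to each other. IPS1 reads were at low Pi with SynCom 5.39 to 29.0% of AT4 reads in Col-0 (median 21.5%), 0.535 to 3.75% in phr1 (median 1.28%) and 4.44 to 25.4% in phr1 phl1 (median 7.62%). No phr1 library reached the range of Col-0 or of phr1 phl1, while the latter 2 overlapped. The log2 ratio was 3.61 lower in phr1 than in Col-0 (difference -3.61), with the same sign in 5 of 5 experiments and an SD over experiments of 1.07. In an exact permutation test of genotype within experiments (two-sided, n = 10 each) p was 0.000257, the smallest it can give, and 0.000772 after adjustment over 3 comparisons. The ratio in phr1 phl1 was 2.82 higher than in phr1 (SD over experiments 0.244), in 3 of 3 experiments, with an exact permutation p of 0.00926, the smallest this test can give, and an adjusted p of 0.0139. Between phr1 phl1 and Col-0 the difference of -0.74 had an exact permutation p of 0.231.

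**Figure D3:**
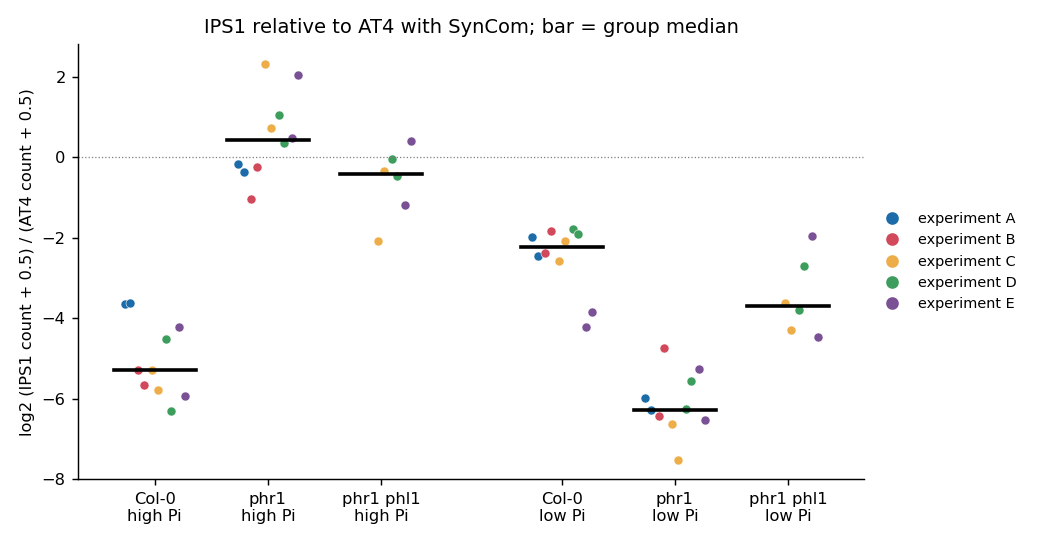
Log2 ratio of IPS1 to AT4 counts, with 0.5 added to each count, in the libraries with SynCom at high and low Pi; points are libraries coloured by experiment and bars are group medians. At low Pi the phr1 libraries lay lowest, with a median of -6.28 against -2.23 in Col-0 and -3.71 in phr1 phl1, whereas at high Pi Col-0 lay lowest, at -5.29.

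Markers of root hairs and endodermis differed between the mutants and Col-0 in the same samples. Their summed level at low Pi with SynCom, over the 8 of 9 listed root markers that were tested, was 23.8 to 431 CPM in Col-0 (median 204), 11.5 to 185 in phr1 (median 105) and 13.7 to 92.1 in phr1 phl1 (median 17.0). In phr1 against Col-0, 7 of 8 were called lower, where 14.1% of all genes were (median log2 fold change -0.94, against -0.0015 over all genes). In phr1 phl1 against Col-0 6 of 8 were called lower, where 19% of all genes were (median -1.63). In phr1 phl1 against phr1 0 of 8 were called, where 1.72% of all genes were called lower, and the median of the 8 was -0.69. COBL9, EXPA7 and PRP3 were at 0 CPM in some of these libraries. Experiments C and D had low root marker levels in every genotype. Their means were 46.6 and 42.7 CPM in Col-0, 26.4 and 21.4 in phr1 and 17.0 and 14.0 in phr1 phl1. The means of IPS1 and AT4 in Col-0 were highest in D. Of 8 shoot markers 1 was called higher in each mutant against Col-0, near the 12.2% and 17.4% of all genes called higher in phr1 and phr1 phl1. A single Col-0 library of experiment D had a summed shoot level of 1393 CPM against a group median of 23295. The part of tissue composition in the IPS1 and AT4 differences was not tested, and in RNA of whole seedlings fewer cells of a type and less RNA per cell cannot be told apart. Without the 3 libraries that stood apart, every call of IPS1 and AT4 named above was kept.

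At high Pi the order of genotypes for IPS1 was reversed: both mutants had more reads at the IPS1 locus than Col-0. Whether all of these reads come from the endogenous gene was not tested. With SynCom, Col-0 had 0 to 0.851 CPM (median 0.0866), phr1 4.24 to 6.76 CPM (median 5.99) and phr1 phl1 3.94 to 9.50 CPM (median 6.41), so no mutant library came down to any Col-0 library. These were few reads per library, 13 to 41 in phr1 and 9 to 43 in phr1 phl1, against 0 to 5 in Col-0. IPS1 was called higher in phr1 (adjusted p = 7.37e-05) and in phr1 phl1 (adjusted p = 0.000284) in comparisons where only 0.0951% and 0.0687% of all genes were called higher. Pooled over libraries, the level was 0.317 CPM in Col-0 (exact 95% Poisson interval 0.169 to 0.543), 5.84 CPM in phr1 (5.12 to 6.63) and 6.91 CPM in phr1 phl1 (5.77 to 8.21). Both Col-0 libraries of experiments C and D held no IPS1 read, and in A, where Col-0 was highest, phr1 had 7.64 times its mean. Without experiment C the adjusted p for phr1 phl1 was 0.0561. The 8 root markers had median log2 fold changes of -0.13 in phr1 and -0.73 in phr1 phl1 against Col-0 at high Pi with SynCom. None of them was called in either. Only 0.0264% and 0.0581% of all genes were called lower in these comparisons, so the lack of calls says little about root markers.

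**Figure D4:**
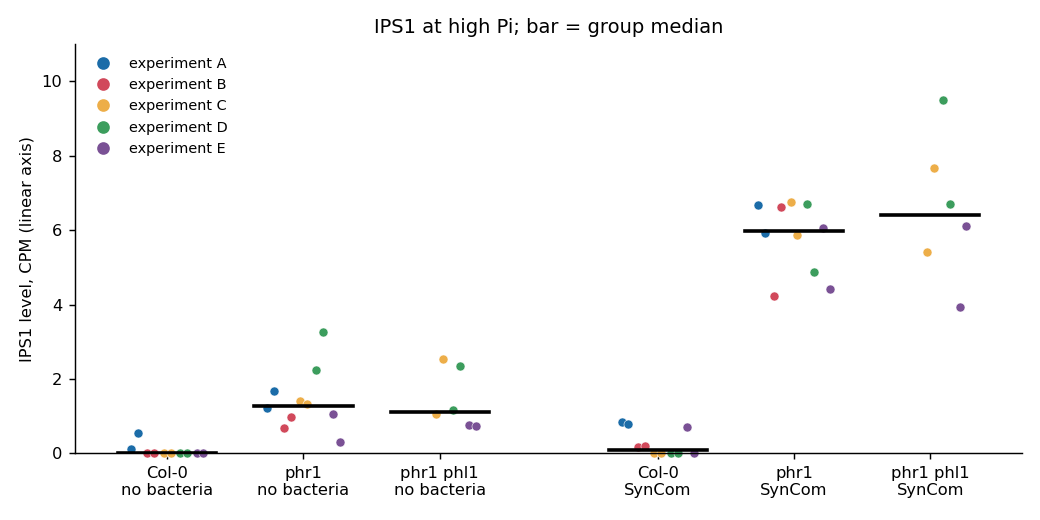
Level of IPS1 at high Pi in CPM on a linear axis, by genotype, without bacteria (left) and with SynCom (right); points are libraries coloured by experiment and bars are group medians. With SynCom the lowest mutant library had 3.94 CPM and the highest Col-0 library 0.851 CPM; without bacteria 1 phr1 library lay below the highest Col-0 library.

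Without bacteria at high Pi the same order of IPS1 counts appeared at lower levels: 0 to 0.561 CPM in Col-0 (8 of 10 libraries at 0), 0.313 to 3.26 CPM in phr1 and 0.741 to 2.53 CPM in phr1 phl1. Neither difference from Col-0 was called (adjusted p = 0.581 and 0.138), although DESeq2 called both (adjusted p = 0.00197 and 0.00265). Between phr1 and phr1 phl1 IPS1 differed by 0.27 ± 0.54 with SynCom and by 0.35 ± 0.78 without bacteria (log2; adjusted p = 0.974 and 0.920). AT4 at high Pi behaved otherwise. Without bacteria it was 3.58 to 7.25 CPM in Col-0 (median 4.89), 1.32 to 5.79 CPM in phr1 (median 2.75) and 12.8 to 24.3 CPM in phr1 phl1 (median 15.3), so the double mutant stood above both without overlap. It was called higher in phr1 phl1 than in phr1 (log2 fold change 2.77 ± 0.52, adjusted p = 0.00107; 0.0634% of genes called higher) and not than in Col-0 (1.85 ± 0.48, adjusted p = 0.0825). The call against phr1 was lost when only C, D and E were fitted (2.43, adjusted p = 0.183) and with summed libraries (2.78, adjusted p = 0.205). With SynCom the AT4 ranges of the 3 genotypes overlapped at high Pi, and no difference was called.

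Low Pi without bacteria moved few genes, and IPS1 and AT4 were among them. In Col-0 3 genes, or 0.0159% of those tested, were called higher at low than at high Pi: AT4, IPS1 and PHT1;2, a root Pi transporter. PHT1;2 was near the floor, at 0 to 13.3 CPM (median 0.313, mean 1.67) at low Pi and 0 to 0.403 CPM at high Pi. AT4 in Col-0 went from 3.58 to 7.25 CPM (median 4.89) at high Pi to 2.43 to 142 CPM (median 24.8) at low Pi, with overlap and a log2 fold change of 2.51 ± 0.42 (adjusted p = 0.000373). The overlap came from experiment C, where AT4 averaged 5.21 CPM at high and 2.79 CPM at low Pi; in the other experiments both low Pi libraries lay above both high Pi libraries. Fitted on C, D and E only, the fold was 1.77 (adjusted p = 1.00), and without experiment B it was 1.91 (adjusted p = 0.157). For IPS1 the call (adjusted p = 0.0130) came from 1 library of experiment B with 25.7 CPM and 162 of the group's 184 reads; without it the adjusted p was 1.00. The other 9 libraries ran from 0 to 1.93 CPM, against 0 to 0.561 CPM at high Pi.

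In the mutants neither RNA was called between low and high Pi without bacteria. No gene of the 18926 was called in phr1 or phr1 phl1 by edgeR there (0%), while 1028 and 1099 genes had unadjusted p-values below 0.05; DESeq2 called 80 and 4 and limma-voom called 0 and 0. AT4 in phr1 was 1.32 to 5.79 CPM at high Pi and 0.707 to 36.9 CPM at low Pi (log2 fold change 1.66 ± 0.48, adjusted p = 0.345). IPS1 in phr1 was 0.313 to 3.26 CPM at high and 0.631 to 2.44 CPM at low Pi (0.15 ± 0.62, adjusted p = 1.00). At low Pi AT4 was lower in phr1 than in Col-0 by -1.77 ± 0.39 (adjusted p = 0.0262; 0.0317% of genes called lower), in ranges of 0.707 to 36.9 and 2.43 to 142 CPM that overlapped. In all 5 experiments the phr1 mean was the lower one, with 1.13 against 2.79 CPM in C and 25.0 against 92.8 CPM in B. This call was lost without the 1 library of experiment B named above (-1.32, adjusted p = 0.880) and in 7 other settings.

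SynCom raised both RNAs at low Pi in each genotype. In Col-0 at low Pi IPS1 was higher with SynCom by a log2 fold change of 7.31 ± 0.43 (adjusted p = 9.38e-30) and AT4 by 6.09 ± 0.42 (adjusted p = 6.21e-23), where 24.4% of genes were called higher. The IPS1 fold rests in part on the 1 library of experiment B with 162 of the 184 reads without bacteria; without it the fold was 9.67, and over the other fits of more than 1 experiment it ran from 6.66 to 10.32, called in each. In phr1 the change of IPS1 was 3.54 ± 0.46 (adjusted p = 7.52e-10) and that of AT4 7.06 ± 0.45 (adjusted p = 1.35e-24; 15% called higher). In phr1 phl1 the changes were 3.66 ± 0.62 for IPS1 (adjusted p = 8.56e-06) and 3.53 ± 0.51 for AT4 (adjusted p = 2.57e-07; 8.3% called higher). At high Pi 1 of these 6 comparisons was called: IPS1 in phr1, from 0.313 to 3.26 CPM (median 1.28) without bacteria to 4.24 to 6.76 CPM (median 5.99) with SynCom, without overlap. Its log2 fold change was 2.14 ± 0.53 (adjusted p = 0.00388; 2.72% of genes called higher), and the call was lost with the 2 libraries of each group and experiment summed (2.18, adjusted p = 0.0627). Shoot markers moved with SynCom at low Pi, with 8 of 8 called lower in Col-0 (median -0.73; 19.6% of all genes called lower), 6 of 8 in phr1 (median -0.50; 12.2%) and 0 of 8 in phr1 phl1 (median -0.27; 5.66%). Their summed level at low Pi in Col-0 was 29660 to 42991 CPM without bacteria and 1393 to 34594 CPM with SynCom. Of 8 root markers 4 were called higher with SynCom in Col-0, where 24.4% of all genes were. For phr1 the count was 2 higher and 3 lower, beside 15% and 12.2% of all genes. For phr1 phl1 it was 2 lower, beside 5.66% of all genes. The part of these markers in the SynCom effects was not tested.

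The SynCom effect on AT4 was larger at low than at high Pi in every genotype. The Pi by SynCom interaction of AT4 was 5.11 ± 0.59 in Col-0 (adjusted p = 7.12e-11), 6.22 ± 0.69 in phr1 (adjusted p = 3.41e-11) and 4.11 ± 0.72 in phr1 phl1 (adjusted p = 0.000600; 0.0573 and 0.105 without experiment C or D). Of all genes 16%, 3.68% and 2.46% were called higher in these interactions. For IPS1 in the mutants, which had measurable levels in all 4 conditions, the interaction was 1.40 ± 0.76 in phr1 (adjusted p = 0.276) and 1.60 ± 1.04 in phr1 phl1 (adjusted p = 0.378). In Col-0 it was 6.01 ± 2.58 (adjusted p = 0.0664), with 5 reads in the whole reference group at high Pi without bacteria; DESeq2 and limma-voom called it.

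PHO2, the transcript that miR399 targets, was higher in both mutants than in Col-0 when low Pi and SynCom were combined. Its level in those groups was 91.4 to 152 CPM in Col-0 (median 108), 158 to 304 CPM in phr1 (median 222) and 554 to 944 CPM in phr1 phl1 (median 605), with no overlap between genotypes. The log2 fold changes were 1.00 ± 0.15 in phr1 against Col-0 (adjusted p = 2.49e-07) and 1.62 ± 0.17 in phr1 phl1 against phr1 (adjusted p = 6.21e-12). Low Pi with SynCom lowered PHO2 in Col-0 (-0.42 ± 0.15, adjusted p = 0.0164) and raised it in phr1 (0.50 ± 0.15, adjusted p = 0.00848) and phr1 phl1 (1.21 ± 0.19, adjusted p = 3.25e-06). Higher PHO2 in phr1 phl1 was not limited to that condition. Without bacteria at high Pi PHO2 was 299 to 628 CPM in phr1 phl1 and 93.5 to 309 CPM in Col-0 (log2 fold change 0.99 ± 0.17, adjusted p = 0.000220). AT4 too was highest in phr1 phl1 there, though not called against Col-0. PHO2 was also called higher in phr1 phl1 than in Col-0 at high Pi with SynCom (0.999) and at low Pi without bacteria (1.31). Of all genes 0.0687% and 0.0317% were called higher in these 2 comparisons. AT4 was called in neither (0.30 and -0.23). PHO2 lies 6 bases from a gene on the other strand, AT2G33760, and the libraries carried no strand information, so reads across that border cannot be told apart. The 6 miR399 precursor loci and MIR827 are not among the loci of the count table, so they were not analysed here. NLA, a ubiquitin ligase for Pi transporters and a target of miR827, was not called between genotypes at low Pi with SynCom.

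The transport proteins that PHO2 limits were followed by RNA only, through 11 genes of the PHT1 family, PHO1 and PHF1. The RNA of these genes rose at low Pi with SynCom, most widely in Col-0. With SynCom 10 of the 10 tested were called higher at low than at high Pi in Col-0 (median log2 fold change 4.66, against 0.04 over all genes), 9 of 10 in phr1 (median 2.26) and 5 of 10 in phr1 phl1 (median 1.17). Of all genes 27.5%, 13.4% and 10.5% were called higher in these comparisons. At low Pi with SynCom 9 of 10 were called lower in phr1 than in Col-0, where 14.1% of all genes were, among them the Pi transporters PHT1;2, PHT1;9 and PHT1;4 at -2.52 ± 0.27, -2.03 ± 0.22 and -1.21 ± 0.28, and PHF1, which helps transporters leave the endoplasmic reticulum, at -0.78 ± 0.15. PHO1, which loads Pi into the xylem, is named after its value was seen as the tenth gene, at -0.10 ± 0.19 (adjusted p = 0.749). PHT1;1, PHT1;2 and PHT1;3 are near-identical neighbours, so reads can be split wrongly among them. From phr1 to phr1 phl1, 3 of 10 were called lower, where 1.72% of all genes were.

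The SPX genes, whose proteins bind inositol pyrophosphates and hold PHR1 back when Pi is ample, differed among themselves in the same 2 steps. SPX3 at low Pi with SynCom changed by -4.46 ± 0.36 from Col-0 to phr1 (adjusted p = 2.11e-18) and by -1.67 ± 0.80 from phr1 to phr1 phl1 (adjusted p = 0.255). SPX1 changed by -1.46 ± 0.22 and by a further -1.06 ± 0.27 (adjusted p = 5.56e-07 and 0.0156), and SPX2 by -0.28 ± 0.14 and -0.66 ± 0.17 (adjusted p = 0.131 and 0.0187). SPX4, which is not induced by Pi starvation, was called in neither step. Over both steps, in phr1 phl1 against Col-0, it was called higher (0.516 ± 0.115, adjusted p = 0.000227). SPX3 differed from IPS1 at high Pi with SynCom, where no phr1 library held an SPX3 read.

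**Figure D5:**
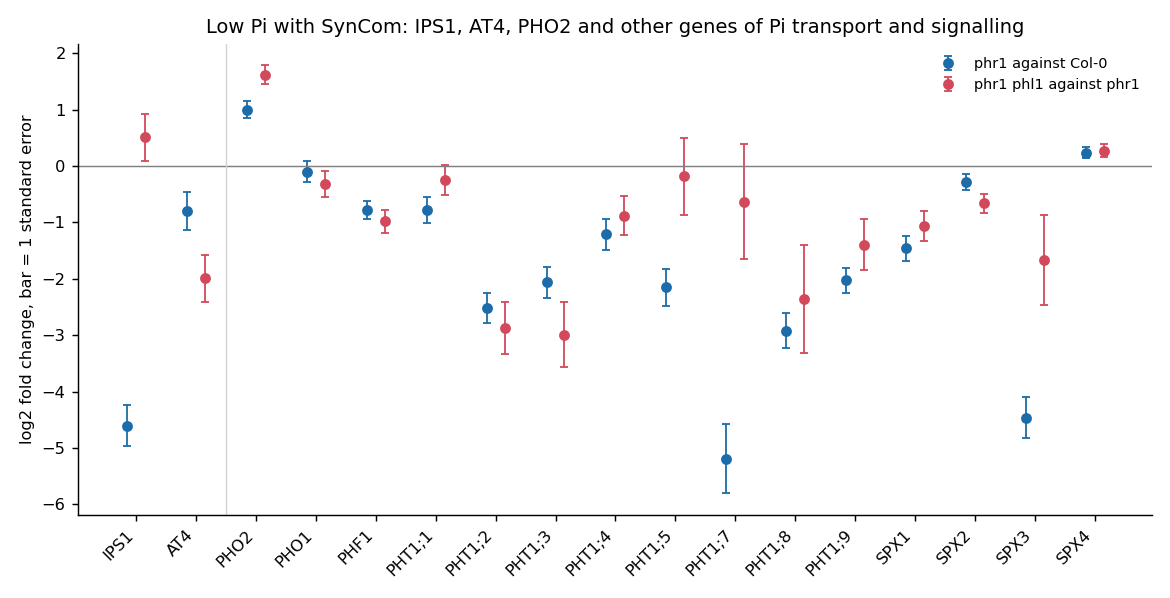
Log2 fold changes at low Pi with SynCom for IPS1, AT4, PHO2, the Pi transport genes and the SPX genes, in phr1 against Col-0 and in phr1 phl1 against phr1; bars are 1 standard error. IPS1 changed by -4.60 and then by 0.51, AT4 by -0.79 and then by -1.99, and PHO2 by 1.00 and then by 1.62.

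The genes whose levels ran most like each mimic were ranked by Pearson correlation of log2(CPM + 1) over all libraries, which share their experiments, depth and conditions, and are given as a description. Closest to IPS1 were AT3G25240 (r = 0.915), AT2G45135 (r = 0.889), PEPC1 (r = 0.889), PS2 (r = 0.879) and SPX3 (r = 0.878). AT4 itself was the 39th (r = 0.806). Closest to AT4 were SPX1 (r = 0.966), AT1G23140 (r = 0.944), AT1G08310 (r = 0.940), PS2 (r = 0.936) and SRG3 (r = 0.934), with IPS1 the 54th. PEPC1 and PS2 encode phosphatases induced by Pi starvation. Over the 26 libraries at low Pi with SynCom alone, IPS1 and AT4 correlated at r = 0.707, with AT3G25240 still first for IPS1 and SPX1 first for AT4. In Col-0, phr1 and phr1 phl1 of that condition AT3G25240 had median levels of 39.6, 2.95 and 1.90 CPM, and SPX1 of 608, 230 and 119 CPM. By Spearman correlation 0 of the 5 genes closest to IPS1 and 4 of the 5 closest to AT4 were the same as by Pearson.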

How the data were processed

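The authors deposited 1 table of raw read counts per locus for 104 libraries of non-stranded poly(A) RNA, per the labels' protocols. The submitters' processing notes name build TAIR10 and HTSeq 0.6.1p1, TopHat2 2.1.1, cutadapt 1.3 and CASAVA 1.8, without settings. The table holds locus IDs only, 0 of its sample columns were left unused, and all sequences and positions printed come from RefSeq's TAIR10.1.

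In R 4.3.3 the deposited counts were filtered by filterByExpr over the 12 groups, which left 18926 of 27206 loci (1788 had no count), scaled by TMM and fitted with edgeR 4.0.16 on group (1 coefficient each) plus experiment. The quasi-likelihood fit used that version's current dispersion method (legacy off). The quasi-likelihood F test was run on 30 contrasts, adjusted by Benjamini-Hochberg over all genes and called at 0.05; a standard error is the absolute log2 fold divided by sqrt(F), and 95% intervals are 1.96 standard errors on either side. Where no other tool is named an adjusted p is that of edgeR, and exact permutation tests served for the ratio only. Contrasts share libraries, and the p-values measure the spread between libraries, which share 5 experiments.

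The members, gene lists and tests were chosen with earlier results of these data known. Named genes were IPS1, AT4, PHO2, up to 4 members of each other list with the smallest adjusted p in Col-0 with SynCom between low and high Pi, and the 5 genes most like IPS1 and the 5 most like AT4; PHR1 and PHL1 were added as the mutated genes. Among 420 library pairs of a group the lowest chi-square per degree of freedom was 1.98, and all were kept as separate libraries. The median correlation of deviations from the group means was 0.525 within and -0.294 between experiments, and 0.525 within an experiment for libraries with the same and with another number, so experiment pairs the libraries and the number adds nothing. Alternatives were DESeq2 1.42.0, limma-voom (limma 3.58.1), other scaling, filters and experiment terms, summed libraries, left-out experiments and libraries.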

Additional observations from a re-analysis of the deposited data

Results flagged for a closer look

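Of 24 combinations of gene and group screened for a library far from the others, 6 were marked. The rule's rate of about 1 in 20 holds for normally distributed values. CPM here are skewed and libraries share experiments, so that rate does not apply and the 6 are a description. In all 6 the highest library stood apart. IPS1 reached 25.7 CPM in 1 library of Col-0 at low Pi without bacteria, from experiment B, where the next highest had 1.93 CPM. AT4 reached 142 CPM in the same library (next 43.6 CPM), and 36.9 CPM in 1 library of phr1 at low Pi without bacteria from experiment B (next 13.0 CPM). IPS1 had 0.561 CPM in 1 library of Col-0 at high Pi without bacteria from experiment A, which is 4 reads, against 0.128 CPM in the next. AT4 had 5.79 CPM in 1 library of phr1 at high Pi without bacteria from experiment D, 1 of the 3 libraries that stood apart over all genes, against 3.29 CPM in the next. It had 23.2 CPM in 1 library of phr1 phl1 at high Pi with SynCom from experiment C, against 9.80 CPM in the next.

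The response of AT4 to low Pi differed between plates with and without SynCom in each genotype, by log2 differences of 5.11 (Col-0), 6.22 (the phr1 mutant) and 4.11 (the phr1 phl1 mutant). With SynCom the response of IPS1 to low Pi was smaller in both mutants than in Col-0, by -8.89 in phr1 and -8.64 in phr1 phl1. Both values rest on the 13 IPS1 reads of Col-0 at high Pi with SynCom and are not read as sizes. The response of AT4 was smaller in phr1 phl1 than in Col-0 (-3.09) and than in phr1 (-3.35). Each of these differences was tested as an interaction in the quasi-likelihood fit.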

How the results depend on the processing

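Of 1093 recomputed values 1006 kept their direction and their side of the threshold, and 30 of 64 results did so under every alternative, fits of 1 experiment at a time not counted. Among these 30 were the falls of IPS1 from Col-0 to phr1 and to phr1 phl1 at low Pi with SynCom, its excess in phr1 at high Pi with SynCom, the responses of AT4 to low Pi with SynCom in all 3 genotypes and its fall from Col-0 to phr1 phl1. None of the 24 changes of sign in these alternatives concerned a called value. In 124 fits of 1 experiment at a time for the called results, with 2 libraries per group, 122 kept the sign and 81 of these the call; for low Pi in Col-0 without bacteria IPS1 turned to -0.68 in experiment A and AT4 to -0.90 in C. The fit with experiment and library number as a replicate block changed no call; the step of AT4 from phr1 to phr1 phl1 was -1.997 with it (adjusted p = 0.00296). Values below are log2 differences, and unless stated the causes were not tested.

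Summing the 2 libraries of a group and experiment, which leaves fewer samples, ended these calls: AT4 in the Pi by SynCom interaction of phr1 phl1 (4.09), the genotype by Pi interaction of phr1 phl1 against phr1 (-3.36), low against high Pi in Col-0 without bacteria (2.52), phr1 against Col-0 at low Pi without bacteria (-1.80) and phr1 phl1 against phr1 at high Pi without bacteria (2.78) and at low Pi with SynCom (-1.98). For IPS1 it ended SynCom in phr1 at high Pi (2.18), low Pi in Col-0 without bacteria (4.58) and low Pi in phr1 phl1 with SynCom (1.76). Experiments C, D and E alone, with fewer samples, ended low Pi in Col-0 without bacteria for AT4 (1.77) and IPS1 (3.24), phr1 against Col-0 at low Pi without bacteria for AT4 (-1.85) and phr1 phl1 against phr1 at high Pi without bacteria for AT4 (2.43), and brought in IPS1 for SynCom in phr1 phl1 at high Pi (2.07). Their changes of sign were AT4 for SynCom in phr1 at high Pi (-0.14) and for phr1 phl1 against Col-0 at low Pi without bacteria (0.31), and IPS1 without bacteria for low Pi in phr1 (-0.15), for phr1 and phr1 phl1 against Col-0 at low Pi (2.02 and 2.35) and for phr1 phl1 against phr1 at high Pi (-0.021).

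DESeq2 called IPS1 in the Pi by SynCom interaction of Col-0 (6.35) and in phr1 and phr1 phl1 against Col-0 at high Pi without bacteria (3.83 and 4.18), and AT4 in phr1 phl1 against Col-0 at high Pi without bacteria (1.85); it did not call IPS1 for low Pi in phr1 phl1 with SynCom (1.59) and turned the sign for phr1 phl1 against Col-0 at low Pi without bacteria (0.20). Limma-voom called that interaction of IPS1 (8.09), did not call IPS1 for low Pi in Col-0 without bacteria (1.95) or AT4 for phr1 against Col-0 at low Pi without bacteria (-1.70), and turned the sign of IPS1 in phr1 and phr1 phl1 against Col-0 at low Pi without bacteria (1.35 and 1.47). Without an experiment term AT4 was not called in the genotype by Pi interaction of phr1 phl1 against phr1 (-3.22) or in phr1 against Col-0 at low Pi without bacteria (-1.88), nor IPS1 for low Pi in phr1 phl1 with SynCom (1.86). The dispersion method of earlier edgeR versions, added after seeing the data, ended the call of IPS1 for low Pi in Col-0 without bacteria (4.45).

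Fits of the compared groups alone called AT4 for SynCom in Col-0 at high Pi (1.03), phr1 against Col-0 at high Pi with SynCom (-0.98), phr1 phl1 against Col-0 at high Pi without bacteria (1.69), phr1 phl1 against phr1 at high Pi with SynCom (1.99) and at low Pi without bacteria (2.28), and IPS1 for SynCom in phr1 phl1 at high Pi (2.19); AT4 in phr1 phl1 against Col-0 at low Pi without bacteria changed sign (0.46). Leaving out the libraries that stand apart, chosen after seeing the data, called AT4 in phr1 phl1 against Col-0 at high Pi without bacteria (1.88). Leaving out the 1 library of experiment B in Col-0 at low Pi without bacteria, also chosen after seeing the data, ended IPS1 for low Pi in Col-0 without bacteria (1.97) and AT4 in phr1 against Col-0 there (-1.32). It called AT4 in phr1 against Col-0 at low Pi with SynCom (-0.81) and IPS1 in the Pi by SynCom interaction of Col-0 (8.35) and for SynCom in phr1 phl1 at high Pi (2.07), and turned the sign in phr1 phl1 against Col-0 at low Pi without bacteria for AT4 (0.12) and IPS1 (1.83) and in phr1 against Col-0 there for IPS1 (1.59).

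With each experiment left out in turn, the values that changed a call or a sign ranged as follows. AT4 ranged from 3.71 to 4.68 in the Pi by SynCom interaction of phr1 phl1, from -0.16 to 0.57 and from -3.80 to -2.88 in the genotype by Pi interactions of phr1 against Col-0 and phr1 phl1 against phr1, and from 1.91 to 2.83 for low Pi in Col-0 without bacteria. In phr1 against Col-0 at low Pi it ranged from -0.996 to -0.59 with SynCom and from -1.90 to -1.61 without bacteria. In phr1 phl1 against Col-0 it ranged from -0.29 to 0.65 at high Pi with SynCom and from -0.69 to 0.21 at low Pi without bacteria, and against phr1 at low Pi with SynCom from -2.19 to -1.75. IPS1 ranged from 4.78 to 9.15 in the Pi by SynCom interaction of Col-0, from 1.99 to 2.26 for SynCom in phr1 phl1 at high Pi and from -0.0044 to 0.51 in the genotype by Pi interaction of phr1 phl1 against phr1. For low Pi it ranged from 0.87 to 6.89 in Col-0 and -0.38 to 0.40 in phr1 phl1 without bacteria, and from 1.498 to 2.13 in phr1 phl1 with SynCom. Against Col-0 it ranged from -1.35 to 2.34 in phr1 and -1.41 to 2.50 in phr1 phl1 at low Pi without bacteria, and from 4.05 to 5.78 in phr1 phl1 at high Pi with SynCom. In phr1 phl1 against phr1 it ranged from -0.017 to 0.47 and -0.044 to 0.79 at high Pi with SynCom and without bacteria, and from -0.23 to 0.83 at low Pi without bacteria. The log2 ratio of IPS1 to AT4 in phr1 phl1 against phr1 ranged from 2.68 to 2.90, in exact tests too small to pass the threshold. The correlation of IPS1 with AT4 was 0.742 with 0.1 added to CPM and 0.560 by Spearman.

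Depth limits IPS1 most: in Col-0 at high Pi 13 reads over 10 libraries with SynCom and 5 without bacteria carry every comparison with that group. Where phr1 phl1 is compared with Col-0 or phr1, libraries of C, D and E stand against those of all 5 experiments. The 2 libraries of a group in an experiment share that experiment, and the p-values treat them as separate.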
